A study of Mus musculus with 21 samples.

Results

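Deletion of *Kif11* by *Gdf9*-Cre was compared with deletion by *Zp3*-Cre in fully grown mouse oocytes, across the whole transcriptome. *Kif11* encodes a plus-end-directed kinesin that pushes spindle microtubules apart. The 4 libraries carrying 2 floxed *Kif11* alleles (fl/fl) were chosen by their labelled genotype, 2 with *Gdf9*-Cre and 2 with *Zp3*-Cre, of 21 libraries in all. The other 17 libraries are wt/fl and fl/del oocytes with or without *Spo11*-Cre. The study's methods count 17 libraries, and do not say whether the fl/fl libraries were prepared together with the others. Poly(A) RNA of 3 oocytes at the germinal vesicle stage was amplified as full-length cDNA for each library. The females were 3 to 4 months old, on a C57BL/6 background, and were primed with equine chorionic gonadotropin or CARD HyperOva 48 h before collection. All 4 libraries share the floxed alleles on both chromosomes and a Cre transgene. They differ by the transgene, which in each case is an inserted construct under a promoter of an oocyte gene. No fl/fl oocytes without Cre are among the libraries analysed here, and a difference between the drivers cannot be told apart from a difference between the transgenic lines. Each mouse gave 1 or 2 libraries, so libraries of a driver may come from 1 animal and the p-values measure the spread between libraries. In the main fit this spread was estimated over all 21 libraries, and not from the 4 fl/fl libraries alone.

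Oocytes grow within the follicle over weeks while they store mRNA, and transcription falls silent when they reach full size. *Gdf9* encodes a growth factor that oocytes secrete to the surrounding granulosa cells, and its promoter is active from the primordial follicle stage. *Zp3* encodes a protein of the zona pellucida, the glycoprotein coat of the egg, and its promoter is active later, in growing oocytes. *Gdf9*-Cre is therefore used to delete a floxed gene earlier in oocyte growth than *Zp3*-Cre.

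The *Zp3* promoter is shown because it names one of the drivers compared. The RefSeq promoter table of GRCm38.p6 gives it as chr5:135979855-135980154 on the plus strand, from 250 bases before the transcription start to 50 after it. The *Gdf9* promoter was not used here. Capitals mark matches to the E-box CANNTG, a motif bound by basic helix-loop-helix factors, which reads the same on both strands.

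Zp3 promoter: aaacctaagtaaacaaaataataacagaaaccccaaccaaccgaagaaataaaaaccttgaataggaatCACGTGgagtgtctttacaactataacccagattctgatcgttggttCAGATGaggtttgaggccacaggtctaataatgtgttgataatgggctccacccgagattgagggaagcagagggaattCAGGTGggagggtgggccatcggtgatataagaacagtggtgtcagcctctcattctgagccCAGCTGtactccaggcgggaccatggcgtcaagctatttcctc

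The 300 bases hold 4 matches, which do not overlap. At least 1 match is found in 72.3% of the 32851 promoters of this length, and 4 or more in 6.49%. The endogenous *Zp3* and *Gdf9* genes were abundant in all 4 libraries. *Zp3* was at 3724 and 3452 CPM (counts per 1000000 counts of the library) in *Gdf9*-Cre replicates 1 and 2, and at 2897 and 3336 CPM in *Zp3*-Cre replicates 1 and 2. *Gdf9* was at 5426, 4794, 3898 and 5296 CPM in the same order. Both *Zp3*-Cre libraries lay below both *Gdf9*-Cre libraries for *Zp3*, while the drivers overlapped for *Gdf9*. Neither difference passed the test, with log2 fold changes of *Gdf9*-Cre over *Zp3*-Cre of 0.23 for *Zp3* (SE 0.13, edgeR adjusted p = 0.768) and 0.18 for *Gdf9* (SE 0.17, adjusted p = 0.826). The promoter of *Spo11* drives the Cre in early meiosis in those of the other libraries that carry one. *Spo11* held 0 counts in all 4 libraries, which allows up to 0.279 to 0.385 CPM at a limit of 3 counts a library.

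The *Gdf9*-Cre libraries held 10759741 and 9192854 counts in all, and the *Zp3*-Cre libraries 7801470 and 8188483, against 7205010 to 18454549 in the other libraries. The *Zp3*-Cre libraries were the shallower ones and had 18330 and 18304 genes with a count, against 19267 and 18740. Mitochondrially encoded genes took 0.510% of the counts in *Gdf9*-Cre replicate 1 and between 0.268% and 0.331% in the other 3 libraries, against 0.168% to 0.281% in the other 17. The 4 libraries had the markers of an oocyte. All 13 oocyte markers were detected, and their summed level was 27039, 23768, 21660 and 27513 CPM. Granulosa and cumulus markers summed to between 411 and 559 CPM, most of it *Serpine2* at 318 to 433 CPM, and the other 17 libraries reached 400.5 to 566 CPM. Theca and stroma markers summed to 1.83 to 8.74 CPM with 6 of 10 at 0, and blood and endothelial markers to 21.02 to 27.3 CPM with 8 of 11 at 0, the rest being mostly the adhesion molecule *Pecam1*. *Inha*, an inhibin subunit of granulosa cells, was at 5.39 CPM in *Gdf9*-Cre replicate 1 and at most 0.244 CPM in the other 3. Of the other granulosa markers, *Hsd17b1* (2.60 CPM), *Gja1* (2.04 CPM), *Amhr2* (1.30 CPM) and *Amh* (1.12 CPM) were also highest in that library, against at most 0.488 CPM elsewhere. The list holds 18 markers, and its sum was highest in *Zp3*-Cre replicate 2, at 559 CPM against 479 CPM in *Gdf9*-Cre replicate 1. *Serpine2* was highest in *Zp3*-Cre replicate 2 too, and the log2 fold changes of the members ran from −5.52 to 6.75. The defining marker *Foxl2* was at 0 in all 4.

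*Kif11* itself was low with both drivers, and the drivers could not be separated by it. Over all exons of *Kif11* (ENSMUSG00000012443, chr19:37376403-37421859, plus strand) the *Gdf9*-Cre libraries held 55 and 45 counts, and the *Zp3*-Cre libraries 62 and 35. These counts are 5.11 and 4.90 CPM against 7.95 and 4.27 CPM, or 5.003 ± 0.153 CPM against 6.11 ± 2.60 CPM (SD, n = 2 each). The *Zp3*-Cre libraries lay on either side of both *Gdf9*-Cre libraries. All 4 were below the wt/fl libraries, which ranged from 23.8 to 43.2 CPM. The log2 fold change of *Gdf9*-Cre over *Zp3*-Cre was −0.24 with a 95% interval of −0.96 to 0.48 (SE 0.37, edgeR adjusted p = 0.966). An exact two-sided permutation test of the CPM gave p = 1, where 0.333 is the smallest p that 2 against 2 libraries allow. Without *Zp3*-Cre replicate 1 the log2 fold change was 0.22, so its sign rested on that library.

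**Figure D1:**
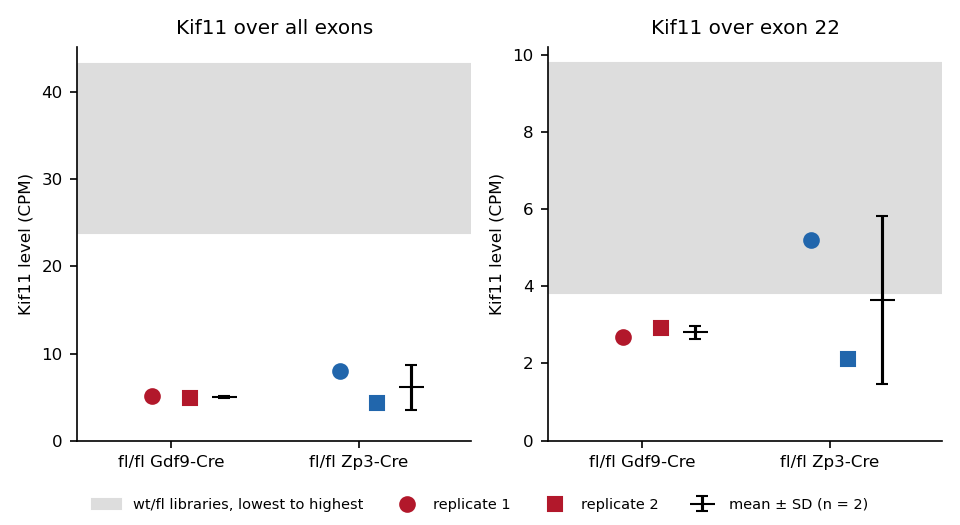
*Kif11* level in CPM over all exons (left) and over exon 22, the last exon (right), in the 2 *Gdf9*-Cre (red) and the 2 *Zp3*-Cre (blue) libraries. Circles are replicate 1 and squares replicate 2, black bars are the mean with the SD, and the grey band spans the wt/fl libraries. The *Gdf9*-Cre libraries fall between the *Zp3*-Cre libraries in both panels.

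The last exon tells what remains of the transcript at its 3′ end. Exon 22 held 15 and 14 counts in the *Gdf9*-Cre libraries, and 21 and 9 in those of *Zp3*-Cre, which are 2.69 and 2.93 CPM against 5.19 and 2.12 CPM of the tables in which *Kif11* was counted over that exon alone. Wt/fl libraries had 3.84 to 9.79 CPM of exon 22, a range that took in *Zp3*-Cre replicate 1 but none of the other 3 libraries, which were below it. The log2 fold change was −0.33 with a 95% interval of −1.53 to 0.87 (SE 0.61, edgeR adjusted p = 0.994), and 0.40 without *Zp3*-Cre replicate 1. With 9 to 21 counts a library, a difference of the size of these intervals was not detectable at this depth. Of 20 genes beside *Kif11* on chromosome 19, 16 were tested and 0 passed the test (edgeR). The smallest adjusted p among them was 0.723, for *Ide*, the insulin-degrading enzyme, at 50.4 and 40.1 CPM with *Gdf9*-Cre, against 52.8 and 69.1 CPM with *Zp3*-Cre. *March5*, a mitochondrial ubiquitin ligase and the most abundant of these neighbours per length, was at 556 to 645 CPM in the 4 libraries.

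Beyond *Kif11*, a small number of genes differed between the drivers, and most of them were higher with *Gdf9*-Cre. Of 23225 genes tested, 207 (0.891%) passed an adjusted p of 0.05 in edgeR, 136 (0.586%) higher with *Gdf9*-Cre and 71 (0.306%) higher with *Zp3*-Cre. The changes were moderate, with median log2 fold changes of 0.88 and −0.82, and 60 of the 207 were above 1 in size. For 204 of the 207 genes the CPM of the drivers did not overlap, where 27.7% of all genes tested did not overlap. The genes were called on these same libraries, so the lack of overlap largely follows from the selection and adds no support to the calls. The transcriptomes were otherwise alike. Among 11731 genes with a mean count of at least 20, 95.6% differed by less than 1 on the log2 scale, and the median log2 fold change over all genes tested was 0. The share of calls higher with *Gdf9*-Cre was 65.7%, and 54.0% once each library's trend with GC content was removed (108 higher with *Gdf9*-Cre and 92 higher with *Zp3*-Cre).

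**Figure D2:**
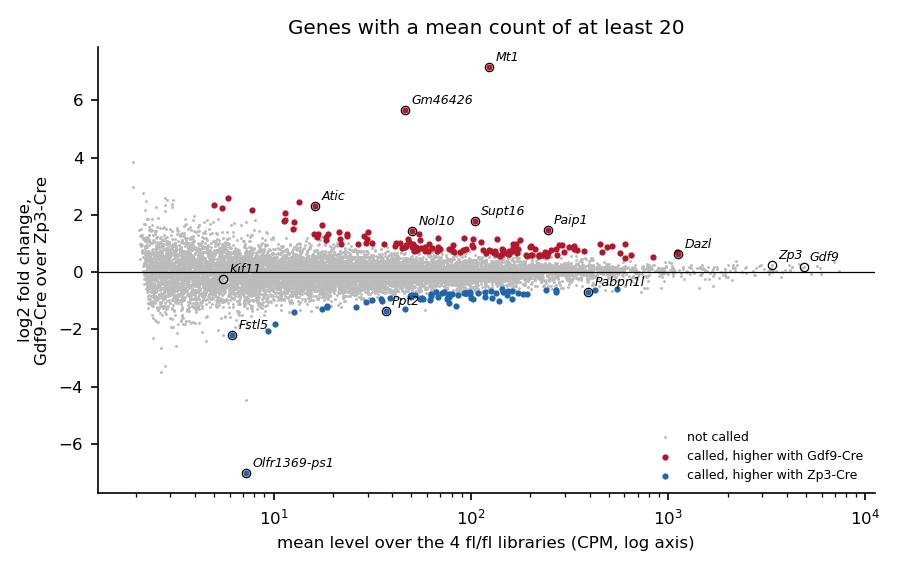
Log2 fold change of *Gdf9*-Cre over *Zp3*-Cre against the mean level over the 4 fl/fl libraries (CPM, log axis), for genes with a mean count of at least 20. Genes that passed the test are red (higher with *Gdf9*-Cre) or blue (higher with *Zp3*-Cre), and most of them lie at 10 CPM or more and within 2 of the zero line.

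The libraries of a driver differed from each other about as much as libraries of different drivers. The root mean square difference of log2 CPM was 0.620 between the *Gdf9*-Cre libraries and 0.733 between the *Zp3*-Cre libraries, over the 11731 genes. Between the drivers it ranged from 0.626, for *Gdf9*-Cre replicate 1 and *Zp3*-Cre replicate 2, to 0.740, for both replicates 1. The mean between drivers was 1.02 times the mean within drivers. The number of calls moved with single libraries. It was 398 without *Zp3*-Cre replicate 2, 127 without *Gdf9*-Cre replicate 2, 150 without *Zp3*-Cre replicate 1 and 206 without *Gdf9*-Cre replicate 1. Without *Gdf9*-Cre replicate 1 the majority turned, to 89 genes higher with *Gdf9*-Cre and 117 higher with *Zp3*-Cre. In these fits the spread comes from 6 groups, and a fit of the 4 fl/fl libraries alone called 42 genes, of which 33 were among the 207. Of the 207 genes, 42 passed the test in the same direction whichever library was left out, 40 of them higher with *Gdf9*-Cre and 2 higher with *Zp3*-Cre.

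**Figure D3:**
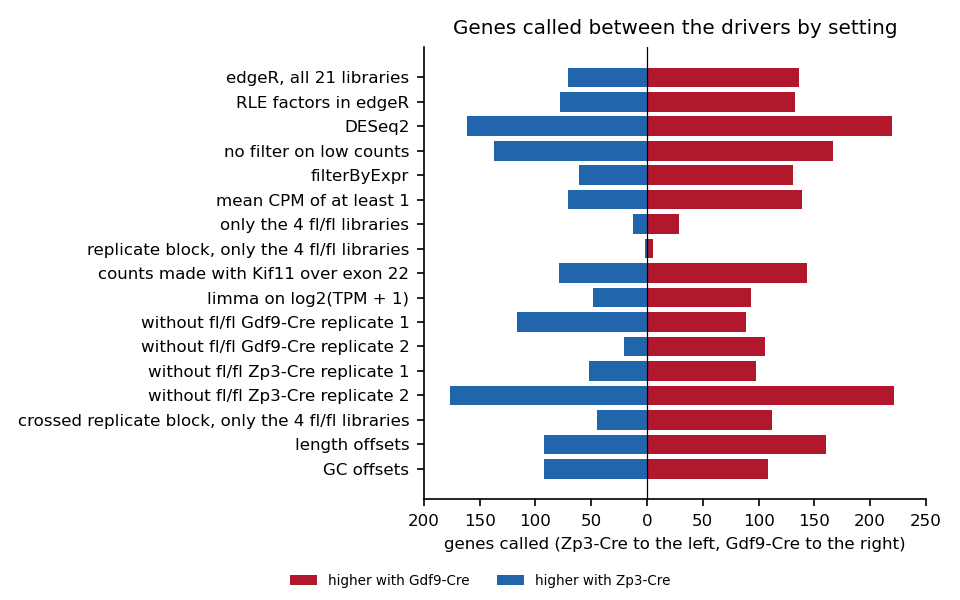
Number of genes called between the drivers under each way of computing them, with genes higher with *Zp3*-Cre as blue bars to the left of 0 and genes higher with *Gdf9*-Cre as red bars to the right. The bars are shortest in the fits of only the 4 fl/fl libraries with or without pairing by replicate number, at 7 and 42 calls.

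Among the 12 genes with the largest difference higher with *Gdf9*-Cre, the smallest adjusted p values belonged to *Supt16*, *Paip1*, *Nol10* and *Atic*. *Supt16* (chr14:52160414-52197416, minus strand), the large subunit of the histone chaperone FACT, was at 175 and 149 CPM with *Gdf9*-Cre, against 36.7 and 59.1 CPM with *Zp3*-Cre. Its level was 3.44 times higher with *Gdf9*-Cre (log2 fold change 1.78, SE 0.18, adjusted p = 1.29e-09), and the other 17 libraries lay between, at 95.1 to 143 CPM. *Paip1* (chr13:119428601-119458218, plus strand), which binds the poly(A)-binding protein and promotes translation, was at 298 and 417 CPM against 158 and 110.2 CPM. It was 2.74 times higher with *Gdf9*-Cre (log2 fold change 1.46, SE 0.16, adjusted p = 1.28e-08), again with the other libraries between, at 184 to 265 CPM. For both genes the *Gdf9*-Cre libraries were above and the *Zp3*-Cre libraries below the range of all other genotypes.

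*Nol10*, a nucleolar protein of ribosome assembly, was at 82.4 and 64.5 CPM against 26.9 and 28.2 CPM (log2 fold change 1.45, SE 0.18, adjusted p = 5.46e-07). *Atic* (chr1:71557150-71579631, plus strand), the enzyme of the last steps of purine synthesis, was at 26.9 and 27.2 CPM against 6.41 and 4.76 CPM (log2 fold change 2.31, SE 0.33, adjusted p = 6.37e-06). For both, the *Zp3*-Cre libraries lay below the other 17 libraries, which had at least 55.8 CPM of *Nol10* and 12.3 CPM of *Atic*. *Tmem87a*, a membrane protein of the Golgi, was at 18.2 and 20.6 CPM against 6.28 and 5.50 CPM, and overlaps *Ganc* on the other strand, from which its reads cannot be told apart in these libraries without strand. *Ip6k2*, an inositol phosphate kinase, was at 28.9 and 33.1 CPM against 13.8 and 10.0 CPM. *Supt16*, *Paip1*, *Nol10*, *Atic*, *Tmem87a* and *Ip6k2* passed the test whichever library was left out.

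Some of the other genes with the largest differences in this direction kept their sign but lost the call when a library was left out. *Ppp1r8*, a nuclear inhibitor of protein phosphatase 1, was at 11.2 and 8.92 CPM against 1.54 and 1.83 CPM, a log2 fold change of 2.60 (SE 0.60, adjusted p = 0.012). *Dhx9*, an RNA helicase, was at 8.74 and 7.94 CPM against 2.44 and 0.977 CPM. *Wdr44*, a partner of the recycling GTPase Rab11, was at 9.20 and 8.81 CPM against 1.15 and 2.69 CPM. The drivers did not overlap in these 3 genes, but the rule that named them required this, so it adds no support. Counts were few in the *Zp3*-Cre libraries. *Vcl*, or vinculin, which ties adhesion sites to actin and overlaps *Ap3m1* on the other strand, was at 14.2 and 11.1 CPM against 3.72 and 2.08 CPM. *Sdad1*, a factor of large ribosomal subunit assembly, was at 18.5 and 16.2 CPM against 5.38 and 5.01 CPM. With 1 library left out the log2 fold changes ranged from 2.43 to 2.78 for *Ppp1r8*, 1.85 to 3.07 for *Dhx9*, 1.73 to 3.04 for *Wdr44*, 1.85 to 2.60 for *Vcl* and 1.68 to 1.87 for *Sdad1*. The adjusted p (edgeR) was 0.161 for *Ppp1r8*, 0.32 for *Wdr44*, 0.0511 for *Sdad1* and 0.0811 for *Dhx9* without *Zp3*-Cre replicate 1. It was 0.0946 for *Vcl* and 0.324 for *Dhx9* without *Zp3*-Cre replicate 2. Without *Gdf9*-Cre replicate 1 it was 0.0726 for *Ppp1r8*, 0.0641 for *Wdr44*, 0.0579 for *Vcl* and 0.156 for *Dhx9*, and without *Gdf9*-Cre replicate 2 it was 0.0699 for *Wdr44* and 0.152 for *Dhx9*.

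**Figure D4:**
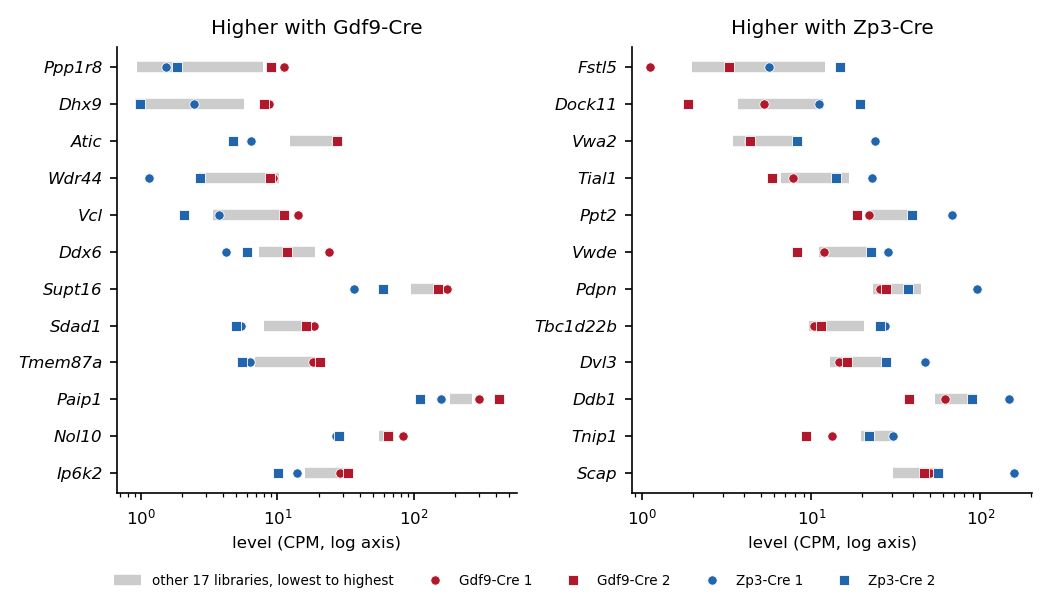
Level in CPM (log axis) of the 12 genes with the largest difference in each direction, in the 2 *Gdf9*-Cre (red) and 2 *Zp3*-Cre (blue) libraries, with circles for replicate 1 and squares for replicate 2. Grey bars span the other 17 libraries. Among the genes higher with *Zp3*-Cre, *Zp3*-Cre replicate 1 stands to the right of replicate 2 for all but *Fstl5* and *Dock11*.

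Genes higher with *Zp3*-Cre differed in known function, and 10 of the 12 with the largest difference were higher in *Zp3*-Cre replicate 1 than in replicate 2. *Ppt2*, a lysosomal thioesterase, was at 67.9 and 39.6 CPM with *Zp3*-Cre and at 22.03 and 18.7 CPM with *Gdf9*-Cre, 2.56 times higher with *Zp3*-Cre (log2 fold change −1.35, SE 0.25, adjusted p = 0.000645). *Ddb1*, an adaptor of the CUL4 ubiquitin ligase, was at 147 and 89.6 CPM against 61.8 and 38.0 CPM (log2 fold change −1.20, SE 0.22, adjusted p = 0.000466). *Scap*, which escorts the sterol-sensing transcription factors SREBP, was at 158 and 56.1 CPM against 50.6 and 46.3 CPM. In *Scap* the difference came from *Zp3*-Cre replicate 1, since replicate 2 was close to both *Gdf9*-Cre libraries.

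*Pdpn*, or podoplanin, a membrane glycoprotein, showed the same, at 96.0 and 37.1 CPM against 25.3 and 27.6 CPM. *Vwa2*, a protein of the extracellular matrix, was at 23.7 and 8.18 CPM against 4.28 and 4.35 CPM. *Dvl3*, a transducer of Wnt signals, was at 46.8 and 27.5 CPM against 14.6 and 16.3 CPM. In each of these 3 genes *Zp3*-Cre replicate 1 was above the highest of the other 17 libraries. Replicate 2 was slightly above it too for *Vwa2* (highest 8.02 CPM) and *Dvl3* (26.3 CPM), but not for *Pdpn* (44.7 CPM). *Tnip1*, an inhibitor of NF-κB signalling, was at 30.4 and 21.9 CPM against 13.2 and 9.25 CPM. *Vwde*, a protein with a von Willebrand factor D domain, was at 28.2 and 22.5 CPM against 11.9 and 8.16 CPM. *Tial1*, an RNA-binding protein of stress granules, was at 22.9 and 14.0 CPM against 7.81 and 5.87 CPM. *Tbc1d22b*, which has a domain of Rab GTPase-activating proteins and overlaps *Tmem217* on the other strand, was the most even of the 12, at 27.2 and 25.3 CPM against 10.4 and 11.4 CPM. *Dock11*, an activator of the GTPase Cdc42, was at 11.02 and 19.3 CPM against 5.20 and 1.85 CPM. *Fstl5*, a secreted relative of follistatin, was at 5.64 and 14.7 CPM against 1.12 and 3.26 CPM. These last genes were higher in *Zp3*-Cre replicate 2 than in replicate 1, the reverse of the other 10.

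All 12 failed the test without at least 1 of the libraries. Without *Zp3*-Cre replicate 1 the adjusted p (edgeR) was 0.882 for *Scap*, 0.75 for *Pdpn*, 0.741 for *Vwa2*, 0.419 for *Tial1*, 0.355 for *Dvl3*, 0.177 for *Tnip1*, 0.158 for *Tbc1d22b*, 0.149 for *Vwde*, 0.105 for *Ppt2* and 0.0811 for *Ddb1*. Without *Zp3*-Cre replicate 2 it was 0.543 for *Fstl5*, 0.182 for *Dock11* and 0.0884 for *Tbc1d22b*. Leaving out a *Gdf9*-Cre library ended the call of the same genes except *Ppt2*, with adjusted p from 0.0671 for *Pdpn* without replicate 1 to 0.466 for *Tial1* without replicate 2. Of all 71 genes higher with *Zp3*-Cre, 57 were higher in *Zp3*-Cre replicate 1 than in replicate 2 (80.3%), against 57.5% of the 11731 genes with a mean count of at least 20. Likewise 55 of the 71 were higher in *Gdf9*-Cre replicate 1 than in its replicate 2 (77.5%), against 53.3%. Of the 136 genes higher with *Gdf9*-Cre, these counts were 82 (60.3%) and 78 (57.4%).

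A few genes for which the call rested on a single library, or on unusual counts, were named after their values had been seen. *Mt1*, the metal-binding metallothionein 1, was at 492 CPM in *Gdf9*-Cre replicate 1 and at 1.41, 1.54 and 1.95 CPM in the other 3. The other 17 libraries had 0.700 to 6.07 CPM of *Mt1*, and its neighbour *Mt2* held 0 counts in all 4. *Zscan4d*, a member of a family of near-identical genes of the early embryo, was at 43.6 CPM in *Gdf9*-Cre replicate 1 and at 1.74, 2.95 and 5.50 CPM in the others. The other 17 libraries had 4.61 to 32.4 CPM of it, and reads shared within this family make its level uncertain. The drivers overlapped in both genes, and both failed the test without *Gdf9*-Cre replicate 1, with adjusted p of 1 and 0.706 (edgeR). *Zscan4d* also failed without *Zp3*-Cre replicate 1 (adjusted p = 0.321). The third gene called in spite of an overlap was *Asap2*, an Arf GTPase-activating protein that overlaps *Itgb1bp1* on the other strand, at 24.4 and 46.2 CPM against 24.7 and 12.1 CPM. Its adjusted p was 0.926 without *Gdf9*-Cre replicate 2 and 0.55 without *Zp3*-Cre replicate 2.

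Among genes known only by prediction, the pseudogene *Gm46426* (chr13:66281136-66284067, minus strand) was at 179 CPM in *Gdf9*-Cre replicate 1 and at 3.15, 1.79 and 1.83 CPM in the other 3. All other genotypes had 20.6 to 156 CPM, so 3 of the 4 fl/fl libraries lay below them and 1 above. Without *Gdf9*-Cre replicate 1 the adjusted p was 0.839 (edgeR). *Olfr1369-ps1* (chr13:21111483-21119095, plus strand), named as an olfactory receptor pseudogene but annotated as protein-coding, held 2 and 0 counts with *Gdf9*-Cre, against 126 and 105 counts with *Zp3*-Cre. Per count of the library it was 144 times higher with *Zp3*-Cre, with an exact 95% interval of 39.4 to 1197 that covers counting error only. The other 17 libraries spanned 0.379 to 12.2 CPM, and both *Zp3*-Cre libraries, at 16.2 and 12.8 CPM, were above all of them. It passed the test whichever library was left out (adjusted p = 9.35e-05 with all of them, edgeR). Of the other predicted genes, *Gm10031* was at 28.3 and 24.7 CPM against 9.10 and 8.06 CPM and *Gm9824* at 25.7 and 10.9 CPM against 4.87 and 4.15 CPM. *BC030867* was at 34.3 and 36.9 CPM with *Gdf9*-Cre against 66.1 and 61.4 CPM with *Zp3*-Cre. *Gm10031* passed the test whichever library was left out, while *Gm9824* failed without *Gdf9*-Cre replicate 1 (adjusted p = 0.392, edgeR), *Zp3*-Cre replicate 1 (0.0763) or *Zp3*-Cre replicate 2 (0.0625), and *BC030867* failed without any of the 4 (adjusted p = 0.087 to 0.264).

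Of the 40 genes higher with *Gdf9*-Cre in every fit that left out a library, 9 more were named after their values had been seen. *Atrx*, a chromatin remodeller, was at 926 and 673 CPM against 433 and 395 CPM (log2 fold change 0.98, SE 0.15, adjusted p = 1.88e-05). *Srpk1*, a kinase of splicing factors, was at 576 and 612 CPM against 311 CPM in both *Zp3*-Cre libraries (log2 fold change 0.97, SE 0.13, adjusted p = 4.32e-06). *Dicer1*, the nuclease that makes small RNAs, was at 617 and 732 CPM against 385 and 346 CPM. These 3 transcripts were 1.89 to 1.98 times higher with *Gdf9*-Cre, and in each the other 17 libraries lay between the drivers or met 1 of them. *Cdc27*, a subunit of the anaphase-promoting complex, was at 385 and 347 CPM against 194 and 195 CPM. *Cenpf*, a protein of the outer kinetochore, was at 612 and 524 CPM against 362 and 344 CPM. *Rad50*, of the MRN complex of double-strand break repair, was at 213 and 209 CPM against 131 and 122 CPM. The drivers did not overlap in any of the 40 genes, which had been called on the same libraries. *Rest*, a repressor of neuronal genes, was at 209 and 193 CPM against 128 and 117 CPM, and *Hsp90b1*, a chaperone of the endoplasmic reticulum, at 199 and 188 CPM against 123 and 117 CPM. *Taf3*, a subunit of the general transcription factor TFIID, was at 291 and 294 CPM against 204 and 168 CPM (log2 fold change 0.69, adjusted p = 0.00484). The only gene besides *Olfr1369-ps1* that was higher with *Zp3*-Cre in every such fit was *Zfp750*, a zinc finger gene that overlaps *Tbcd* on the other strand, at 79.5 and 87.2 CPM against 42.4 and 39.8 CPM (log2 fold change −0.99, SE 0.19, adjusted p = 0.00121). With only the 4 fl/fl libraries, *Atrx* (adjusted p = 0.0317, edgeR) and *Srpk1* (0.0462) still passed. In that fit *Cdc27* (0.0713), *Dicer1* (0.0632), *Zfp750* (0.235), *Rad50* (0.336), *Cenpf* (0.344), *Rest* (0.380), *Hsp90b1* (0.460) and *Taf3* (0.474) did not.

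Both drivers were set against the range of the other 17 libraries, as a description of where a called gene stood. The study's methods count 17 libraries, and a gap to this range cannot be told apart from a difference between the sets of libraries. *Arpc3*, which was not called, was at 29.6 to 69.4 CPM in the 17 and at 146 to 259 CPM in all 4 fl/fl libraries. Which driver had moved was not tested. Of the 136 genes higher with *Gdf9*-Cre, both *Gdf9*-Cre libraries were above all 17 in 56 (41.2%), both *Zp3*-Cre libraries were below all 17 in 77 (56.6%), and both held in 20. Of the 71 genes higher with *Zp3*-Cre, both *Zp3*-Cre libraries were above all 17 in 35 (49.3%), both *Gdf9*-Cre libraries were below in 18 (25.4%), and both held in 2. The same 4 positions were taken by 3.36%, 1.57%, 4.03% and 1.36% of all genes tested. Called genes were selected for a difference between the drivers, so larger shares than over all genes follow in part from that selection. Neither driver was outside the range in 23 of the 136 and 20 of the 71 genes. Called genes higher with *Gdf9*-Cre had a median exon length of 7434.5 bp and a GC content of 44.9%, and those higher with *Zp3*-Cre had 5832 bp and 51.7%, against 4000 bp and 48.3% over the genes with a mean count of at least 20. The part of length and GC content in the calls was tested only by removing their trends, which left 160 of the 207 calls with GC content and 199 with length.

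Lists of oocyte genes were then compared between the drivers. Over all lists, 507 genes were tested and 11 passed (2.17%, against 0.891% of all genes), 8 higher with *Gdf9*-Cre and 3 higher with *Zp3*-Cre, with a median log2 fold change of 0.06. With DESeq2 the number was 19, of 381 genes called in all. With only the 4 fl/fl libraries it was 1, of 42 genes called in all. The share over all genes runs over 23225 genes, of which 11731 had a mean count of at least 20. Called genes had a median mean count of 816. These shares are not matched for level, here or in the single lists below, and an excess of calls in the lists was not tested. *Kif15*, *Cpeb1*, *Dnmt3a*, *Zfp57*, *Zp1*, *Zp2* and *Nlrp5* are given as uncalled members chosen after their values had been seen.

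Of 45 kinesins and spindle genes, 5 were called (11.1%, against 0.891% of all genes tested). Of these, 4 were higher with *Gdf9*-Cre and 1 was higher with *Zp3*-Cre, and the median log2 fold change of the list was 0.03. *Kif20b*, a kinesin of cytokinesis, was at 292 and 230.1 CPM against 107 and 174 CPM (log2 fold change 0.91, SE 0.16, adjusted p = 0.000458). *Cenpe*, the kinesin that carries chromosomes at the kinetochore, was at 459 and 386 CPM against 227 and 266 CPM (log2 fold change 0.81, SE 0.15, adjusted p = 0.000473). *Kif3a*, of the transport kinesin-2, was at 111 and 92.1 CPM against 66.8 and 59.6 CPM. *Ckap5*, a microtubule polymerase, was at 188 and 184 CPM against 118 and 125 CPM. *Cltc*, the clathrin heavy chain, which also binds spindle microtubules, moved the other way, at 136 and 92.1 CPM with *Gdf9*-Cre against 219.7 and 159 CPM with *Zp3*-Cre. Of these 5 genes, *Cenpe* passed the test whichever library was left out but not with only the 4 fl/fl libraries (adjusted p = 0.219, edgeR). Without *Zp3*-Cre replicate 1 the adjusted p (edgeR) was 0.114 for *Kif20b*, 0.0657 for *Kif3a*, 0.212 for *Ckap5* and 0.431 for *Cltc*. *Kif3a* also failed without *Gdf9*-Cre replicate 1 (adjusted p = 0.225) and without *Zp3*-Cre replicate 2 (0.0714), *Ckap5* without either *Gdf9*-Cre library (0.106 and 0.109) and *Cltc* without *Gdf9*-Cre replicate 2 (0.782). *Tacc3*, a partner of *Ckap5* at spindle poles and the most abundant gene of the list per length, was at 2160.5 and 1595 CPM against 1480.2 and 2761 CPM. The other kinesin of spindle bipolarity, *Kif15*, was at 2.39 to 5.86 CPM in the 4 libraries and its drivers overlapped.

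Genes that store or remove maternal mRNA gave 3 calls, 2 of 11 storage genes (18.2%) and 1 of 13 decay genes (7.69%), against 0.891% of all genes tested. Of 11 storage genes, *Dazl* and *Ddx6* were higher with *Gdf9*-Cre, while the median of the list was −0.41 and 4 of the 11 members were higher in both *Zp3*-Cre libraries than in both *Gdf9*-Cre libraries without passing the test. Over all genes tested, 14.6% had such a gap with *Zp3*-Cre higher. *Dazl*, a translational activator of germ cells, was at 1375 and 1328 CPM against 878 and 909 CPM (log2 fold change 0.63, SE 0.13, adjusted p = 0.00313), and passed whichever library was left out but not with only the 4 fl/fl libraries (adjusted p = 0.479). *Ddx6*, the RNA helicase of P-bodies, was at 23.9 and 11.7 CPM against 4.23 and 5.98 CPM, and failed without *Gdf9*-Cre replicate 1 (adjusted p = 0.29, edgeR) and without *Zp3*-Cre replicate 1 (0.139). *Cpeb1*, which binds the polyadenylation element of stored mRNAs, was at 451 and 298 CPM against 513 and 658 CPM, with an adjusted p of 0.057. Of 13 decay genes, *Pabpn1l*, the poly(A)-binding partner of the deadenylase adaptor *Btg4*, was higher with *Zp3*-Cre. It was at 289.6 and 299 CPM with *Gdf9*-Cre, against 591 and 396 CPM with *Zp3*-Cre (log2 fold change −0.70, SE 0.18, adjusted p = 0.0297). The call of *Pabpn1l* was lost without *Zp3*-Cre replicate 1 (adjusted p = 0.52, edgeR) and without either *Gdf9*-Cre library (0.158 each). *Btg4* itself was at 3956 to 4359 CPM in all 4 libraries.

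Of 12 genes for DNA methylation and oocyte chromatin, 1 was called in each direction (16.7% in all, against 0.891% of all genes tested). *Dnmt1*, the maintenance DNA methyltransferase, was at 1362 and 1346 CPM with *Gdf9*-Cre, against 1022 and 699 CPM with *Zp3*-Cre (log2 fold change 0.69, SE 0.14, adjusted p = 0.00369). *Trim28*, a co-repressor of zinc finger proteins that overlaps *Zbtb45* on the other strand, was at 41.2 and 34.9 CPM against 106 and 46.4 CPM (log2 fold change −0.95, SE 0.23, adjusted p = 0.0175). *Dnmt1* failed the test without *Zp3*-Cre replicate 2 (adjusted p = 0.114, edgeR), and *Trim28* without *Zp3*-Cre replicate 1 (0.865) or *Gdf9*-Cre replicate 2 (0.28). The de novo methyltransferase *Dnmt3a* was at 119 and 91.0 CPM against 88.8 and 76.9 CPM, without passing the test. *Zfp57*, which guards imprints, was at 706 and 547 CPM against 869 and 1016 CPM with an adjusted p of 0.051. *Dppa3*, or Stella, the most abundant member per length, overlapped between the drivers at 3566 to 5338 CPM.

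Of 19 meiotic prophase genes tested, 1 passed (5.26%, against 0.891% of all genes tested). *Smc3*, the cohesin subunit, was at 389.5 and 369 CPM with *Gdf9*-Cre, against 169.6 and 227 CPM with *Zp3*-Cre (log2 fold change 0.96, SE 0.15, adjusted p = 5.15e-05), and passed whichever library was left out but not with only the 4 fl/fl libraries (adjusted p = 0.0624). The median log2 fold change of the list was 0.20. *Syce2*, of the synaptonemal complex, was at 684 and 883 CPM against 800.1 and 608 CPM.

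The other 19 lists gave 0 calls in edgeR. Of their 396 tested genes that no list with a call holds, 20 had an unadjusted p under 0.05 in edgeR. Of all 23225 genes tested, 1659 did. Among the 396, DESeq2 called 1 and limma on TPM values 0, where they called 381 and 141 genes in all. In the zona pellucida list, *Zp2* was at 4508 and 3059 CPM with *Gdf9*-Cre, against 2418 and 5193 CPM with *Zp3*-Cre, and *Zp1* at 959 and 781 CPM against 852 and 1140 CPM. In the subcortical maternal complex, *Nlrp5* was at 1898 and 916.04 CPM against 878 and 3030.3 CPM, and *Nlrp4f* at 1378 and 928 CPM against 1200.4 and 2240.5 CPM. In *Zp1*, *Zp2* and *Nlrp5* the spread between replicates was larger than the difference between the driver means. *Nlrp4f* had the smallest adjusted p of the lists without a call (log2 fold change −0.56, SE 0.16, adjusted p = 0.0911, edgeR). It passed the test without *Gdf9*-Cre replicate 1 (adjusted p = 0.00973) and without *Zp3*-Cre replicate 1 (4.50e-05), and its log2 fold change was 0.025 without *Zp3*-Cre replicate 2. Secreted factors gave the smallest adjusted p for *Bmp6*, a bone morphogenetic protein, at 55.9 and 36.1 CPM against 81.8 and 60.8 CPM (adjusted p = 0.223, edgeR). *Sdhc*, a subunit of succinate dehydrogenase, was the respiratory chain gene nearest to a call, at 90.5 and 70.3 CPM against 121 and 116 CPM (adjusted p = 0.12). *Pde3a*, the phosphodiesterase whose activity lets oocytes resume meiosis, was at 74.9 and 58.7 CPM against 107 and 78.3 CPM (adjusted p = 0.524). *Bcl2l1*, which protects from apoptosis, was at 68.6 and 53.5 CPM against 91.5 and 81.1 CPM, without passing the test. *Mos*, the kinase of meiotic arrest, was at 885 to 1098 CPM in the 4 libraries. *Arpc3*, of the Arp2/3 complex that branches actin, was at 255 and 259 CPM against 198 and 146 CPM (adjusted p = 0.219, edgeR). *Psmc1*, of the proteasome, was at 221 and 239 CPM against 301 and 297 CPM (adjusted p = 0.445).

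The summed levels of several lists set *Gdf9*-Cre replicate 1 with *Zp3*-Cre replicate 2. Those of meiotic prophase, mRNA decay, and immediate early and heat shock genes did not overlap between the drivers. The zona pellucida list stood at 114% and 120% of the mean of the 4 libraries in *Gdf9*-Cre replicate 1 and *Zp3*-Cre replicate 2, and at 90.3% and 76.3% in *Gdf9*-Cre replicate 2 and *Zp3*-Cre replicate 1. The subcortical maternal complex split the same way, at 110.2% and 117% against 85.8% and 87.2%. Cytosolic ribosomal proteins split in the opposite sense, at 89.1% and 77.6% against 114% and 119%, and the nuclear-encoded respiratory chain at 89.3% and 83.0% against 114% in both. In these 4 lists the libraries of a driver lay on either side of the mean. Meiotic prophase genes were at 106% and 116% with *Gdf9*-Cre against 92.2% and 85.3% with *Zp3*-Cre, and maternal mRNA decay genes at 96.0% and 98.7% against 104% and 101%. Immediate early and heat shock genes summed to 4837 and 4732 CPM against 4459 and 4451 CPM. The prophase sum includes the called *Smc3*, at 389.5 and 369 CPM against 169.6 and 227 CPM, and was not computed without it. A gap of this kind is common, as 27.7% of all single genes tested had one. Of 82 ribosomal proteins tested, the CPM of the drivers did not overlap in 8 (9.76%), and of 79 respiratory chain genes in 7 (8.86%), against 27.7% of all genes. Mitochondrially encoded proteins were high in *Gdf9*-Cre replicate 1, at 150% of the mean, where *mt-Cytb* was at 1495 CPM and at 756 to 932 CPM in the other 3 libraries. None of the 13 was called or separated the drivers.

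**Figure D5:**
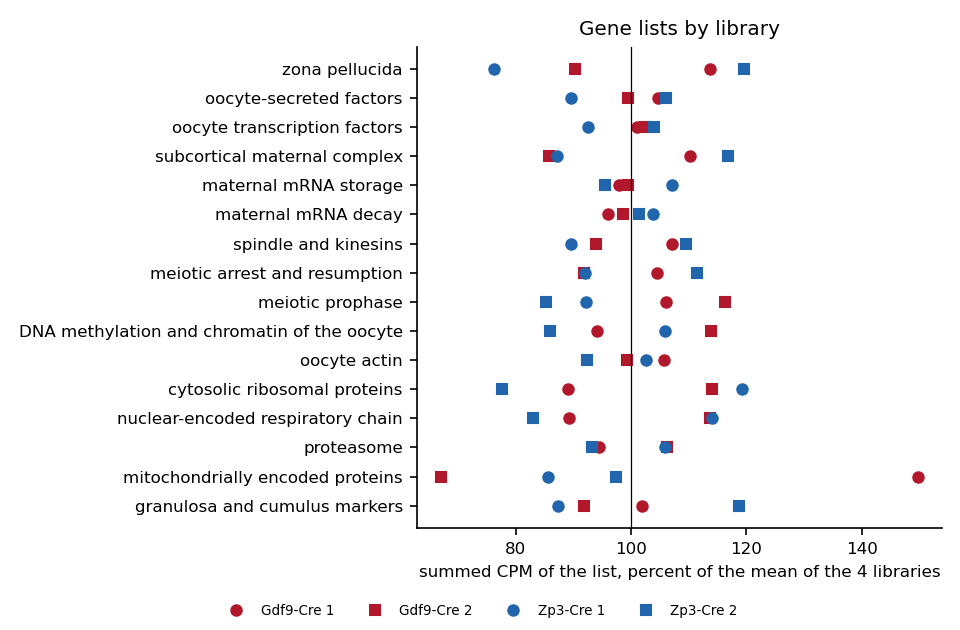
Summed CPM of each gene list as percent of its mean over the 4 libraries, with *Gdf9*-Cre in red, *Zp3*-Cre in blue, circles for replicate 1 and squares for replicate 2. In the zona pellucida, subcortical maternal complex, ribosomal and respiratory chain lists, a red circle sits with a blue square and a red square with a blue circle.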

How the data were processed

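Per the labels and the study's methods, libraries were made with SMART-seq v4 and Nextera XT, without strand. The authors used fastp for trimming, HISAT2 2.2.1 for alignment to GRCm38, and featureCounts 2.0.3 with Ensembl 93 for counting per gene. The deposited count tables hold whole-number counts for 54232 genes, not normalized, with *Kif11* over all exons or over exon 22 alone. The deposited TPM values were made by the authors in a way not given in the sources used here. The columns of the authors' tables were matched to libraries by the library names in the labels.

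The main test was edgeR 4.0.16 (R 4.3.3), quasi-likelihood, with TMM, on the all-exon counts of 21 libraries in 6 groups, keeping genes detected in 3 or more libraries, two-sided, with Benjamini-Hochberg adjustment over 23225 genes. The SE was taken as the log2 fold change over the root of F, and the interval as 1.96 SE. Alternatives were RLE, DESeq2 1.42.0, other filters, limma 3.58.1 on log2(TPM + 1), only the 4 fl/fl libraries, a replicate block, each library left out, and offsets for length and GC content. Other steps used Python 3.11.15. The code was tested on simulated data.

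Named genes are *Kif11*, the driver genes and *Nnt*, up to 12 genes per direction with the largest fold change among called genes with a mean count of at least 20 and no overlap (predicted genes apart, up to 3), called list members, and for each list the members highest in TPM and lowest in p. The comparison, the lists and the genes were chosen with earlier results of these data known. Replicates differed by more than sampling noise. Counting error sets the precision of low genes.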

Additional observations from a re-analysis of the deposited data

How the results depend on the processing

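*Kif11* and the named genes kept their direction except as given here. The number of genes called was 381 with DESeq2 (161 higher with *Zp3*-Cre and 220 higher with *Gdf9*-Cre) and 304 with no filter on low counts (137 higher with *Zp3*-Cre), with 19 list members called in each. It was 42 with only the 4 fl/fl libraries (29 and 13, with 1 list member). With limma on log2(TPM + 1) it was 141, with 4 list members. Leaving out 1 library gave 127 to 398 calls, 89 to 221 higher with *Gdf9*-Cre and 21 to 177 higher with *Zp3*-Cre, with 11 to 19 list members. The exon 22 count table gave 222 calls, and RLE factors 211. Of the 52 named genes that passed the test, 26 still passed with only the 4 fl/fl libraries, and 26 with limma.

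The replicate numbers did not pair the libraries (correlation of same-numbered deviations −0.178), and with the replicate block 7 genes were called, 5 higher with *Gdf9*-Cre and 2 higher with *Zp3*-Cre, with 0 list members. The crossed pairing, added after seeing the data, called 157 genes, 45 of them higher with *Zp3*-Cre. Offsets for length and GC content, also chosen after seeing the data, gave 252 and 200 calls.

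Leaving out 1 library gave log2 fold changes of *Kif11* from −0.58 to 0.22 over all exons and −0.81 to 0.40 over exon 22, and ratios of mean CPM from 0.63 to 1.17. It turned the sign of *Mt1* (−0.27 to 8.16) and *Zscan4d* (−1.25 to 3.39), and of these uncalled genes: *Inha* (−3.80 to 8.18), *mt-Nd5* (−0.30 to 1.01), *mt-Cytb* (−0.22 to 0.76), *Dcn* (−0.35 to 0.72), *Syce2* (−0.00096 to 0.37), *Dppa3* (−0.13 to 0.44), *Gdf9* (−0.060 to 0.47), *Zar1l* (−0.086 to 0.28), *Rps29* (−0.24 to 0.56), *Izumo1r* (−0.055 to 0.19), *March5* (−0.058 to 0.15), *Bcl2l10* (−0.090 to 0.19), *Btg4* (−0.031 to 0.11), *Ndufa2* (−0.31 to 0.49), *Hist1h2bc* (−0.20 to 0.19), *Serpine2* (−0.29 to 0.25), *Mos* (−0.18 to 0.067), *Tacc3* (−0.56 to 0.43), *Nlrp4f* (−0.97 to 0.025) and *Hist1h4a* (−1.83 to 0.0039). *Sohlh1*, counted in 1 of the 4 libraries, ranged from 0 to 5.87. Length offsets turned *Zar1l* (−0.010), *Rps29* (−0.014), *Bcl2l10* (−0.057) and *Ndufa2* (−0.080), and GC offsets *Btg4* (−0.066). With limma, *March5* (−0.0093), *Bcl2l10* (−0.013), *Btg4* (−0.016) and *Ndufa2* (−0.0012) turned. *Hist1h2bc* turned with only the 4 fl/fl libraries (0.012) and in both fits with a replicate block (0.020), as did *Serpine2* in the latter (0.0022 and 0.0016). The causes were not tested.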

Other observations

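*Nnt* (ENSMUSG00000025453), a mitochondrial transhydrogenase gene of which some C57BL/6 strains lack exons, held 13 counts in *Zp3*-Cre replicate 1, or 1.67 CPM, and 0 counts in the other 3 fl/fl libraries and in the 17 others. This entry had a count in too few libraries to be tested. A second entry of *Nnt*, ENSMUSG00000116207 (chr13:119335528-119408952), lies within the first (chr13:119335448-119408997). It held 0 counts in all fl/fl libraries and in the 17 others. Whether reads that fall in both entries were counted is not given, so counts of 0 do not tell whether *Nnt* was transcribed. The cause of the 13 counts was not tested.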
